A study of Rattus norvegicus with 9 samples.

Results

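The members described here are the probes for noncoding transcripts whose name on the array starts with MRuc. They were chosen by that name alone among the probes that are not controls, and no measured value entered the choice. The array held 685 such members among 24684 non-control probes, with 1 probe per member name and 3 spots per member probe. All 24684 probes together had 42136 spots, so the other probes had fewer than 3 spots on average. Of the names, 235 started with MRuc007, 259 with MRuc008 and 191 with MRuc009. Neither the labels nor the files say what the prefix stands for, and the letters after MR have the form of a UCSC known gene identifier. Total kidney RNA was taken from male rats of the strains Dahl S (Dahl Salt Sensitive), Dahl R (Dahl Salt Resistant) and SHR (spontaneously hypertensive rat), with 3 rats and 3 arrays per strain. All 3 groups were 53 days old, shared a day of birth, were weaned at 30 days and then received a diet with 0.3% salt, so no group had a high-salt diet. From each rat, 1 μg of total RNA was amplified, labelled with the dye Cy3 and put on a one-colour array for coding and long noncoding transcripts. The labels do not tie the rats of a strain to separate preparations, and a p-value therefore speaks only of how much these samples varied.

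Long noncoding RNAs are transcripts with no long open reading frame. Many are made by the same polymerase as messenger RNAs, are spliced and carry a poly(A) tail, and they are often less abundant and more restricted to a tissue or cell type than messenger RNAs. Some act on nearby genes in the nucleus, others bind proteins or other RNAs, and for most no role is known. The Dahl strains were bred from common stock for a high or a low rise of blood pressure on salt, and the SHR becomes hypertensive without added salt. The names of the members are paired with no gene function in the files, so no role is given for any of them below.

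Signals are given as log2 of the processed signal relative to the 75th percentile of the same array, called the level here, so that 0 is the signal of that percentile. A level below 0 is a dimmer signal, and 1 unit is a 2-fold step. Probes bind with different strength, so levels are compared between arrays and never read as the abundance of one member against another. In whole kidney, fewer cells of a type and less RNA per cell cannot be told apart. Probe sequences were not used here, and whether a strain's own sequence under a probe changed its signal was not tested. Of 17 listed kidney marker genes, 14 were on the array and 12 were well above background on all 9 arrays.

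SHR replicate 3 stood apart from the other 8 arrays. Its 75th percentile was 1462.1 in scanner units against 2120.4 to 2750.9, its median local background was 88.0 against 43.0 to 45.0, and 7.93% of its spots carried an outlier mark against 1.49% to 2.62%. Over spots without an outlier mark, its 75th percentile was 710.4 against 2080.9 to 2691.2. The levels are taken relative to the percentile over all spots, so the 0 of this array depends on that choice. The dimmest signal well above background lay at a level of -2.99 on that array and between -7.51 and -5.92 on the others. The median level of the members that were not well above background was -4.54 there and -9.06 to -7.68 elsewhere. A dim member therefore has a raised floor on SHR replicate 3. Over the 327 tested members with a value on every array, Pearson's r between arrays was 0.984 to 0.997 within a strain and 0.942 to 0.994 between strains without that array, and 0.905 to 0.940 with it. These correlations are across members that share an array and are given as a description. The scan times in the file headers formed 3 sets, with Dahl S replicates 1 to 3 and Dahl R replicate 1 in the first, Dahl R replicates 2 and 3 with SHR replicates 1 and 2 in the second, and SHR replicate 3 alone in the third. Dahl S and SHR never shared a scan time, and the main SHR comparisons of the named members are given with and without SHR replicate 3.

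A signal in the kidney was detected for about as large a share of the MRuc members as of the probes named MRAK and XR_, and for a smaller share than of coding transcripts. A member counted as well above background on an array when at least 0.5 of its spots carried that mark. The same rule was used for every probe, and its dependence on the number of spots was not tested. In Dahl S the shares were 39.4%, 49.5% and 39.3% of the 685 members. In Dahl R they were 54.0%, 47.4% and 47.4%. In SHR they were 46.6%, 51.5% and 22.8%. The strains overlapped, and the share on SHR replicate 3 was the lowest of all. The strain means were 42.7% ± 5.9 (SD, n = 3) in Dahl S, 49.6% ± 3.8 (SD, n = 3) in Dahl R and 40.3% ± 15.4 (SD, n = 3) in SHR.

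On the same arrays, the share of MRuc members was lower than that of the 3588 probes named MRAK by 1.08 percentage points on average (MRuc minus MRAK -1.08 ± 0.96, SD over 9 arrays). It was lower on 8 of 9 arrays, with an exact two-sided sign-flip permutation test over the arrays giving p = 0.0117 (0.0117 after Benjamini-Hochberg adjustment over 4 comparisons). Against the 1702 probes named XR_ the share of MRuc was higher by 2.16 ± 1.04 points, on 9 of 9 arrays. Against the 861 probes named BC it differed by -35.64 ± 1.88 points and against the 15321 coding probes named NM_ by -29.7 ± 2.57 points, in both cases lower on 9 of 9 arrays. Each of these last 3 comparisons gave an exact permutation p = 0.00391, the smallest that 9 arrays allow, and an adjusted p = 0.00521. The same probes were scored on all 9 arrays, so these 4 tests cover the arrays and not the choice of probes. The gap to MRAK and XR_ was at most a few points on any array, from -2.51 to 0.22 for MRAK and from 0.51 to 3.32 for XR_, and the gap to coding probes was never smaller than 26.2 points.

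**Figure D1:**
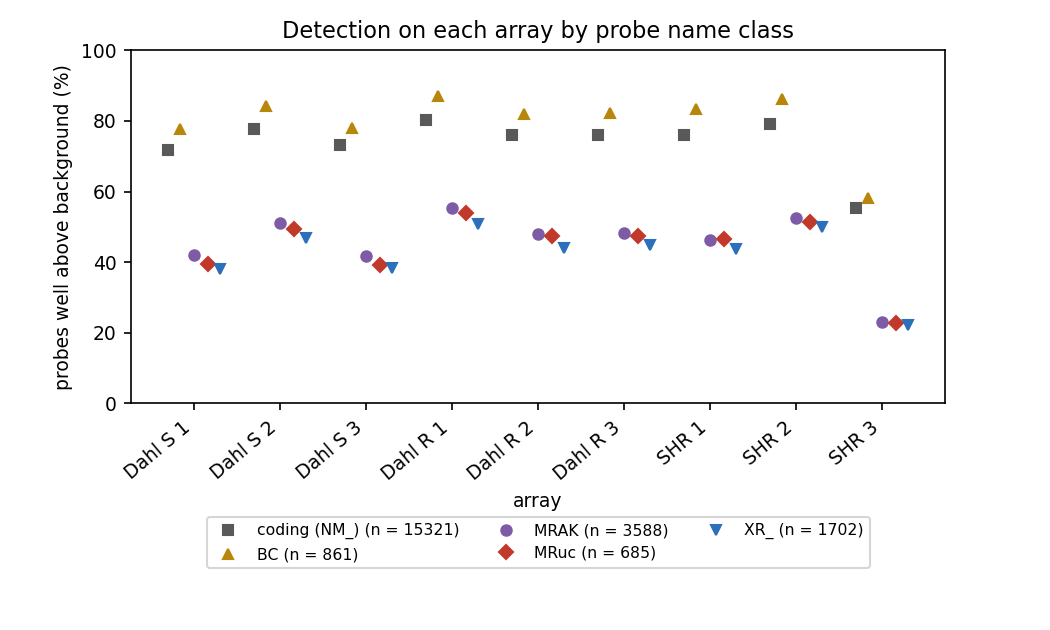
Share of probes well above background (%, y axis) on each of the 9 arrays (x axis), with 1 point per array for MRuc and 4 other name classes. MRuc lies between 22.8% and 54.0%, beside MRAK and XR_ and below BC and NM_ on every array, and SHR replicate 3 is lowest in all classes.

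Member by member, detection was mostly all or nothing. Of the 685 members, 155 (22.6%) were well above background on all 9 arrays and 302 (44.1%) on none. The same shares of all 24684 probes were 42.7% and 25.9%. Another 44 members were detected on 1 or 2 arrays, 81 on 3 to 7 and 103 on 8. Of those 103, 102 lacked the signal on SHR replicate 3 alone, and without that array 257 members (37.5%) were detected on every array. No member (0 of 685) was detected on SHR replicate 3 only. The authors' deposited table of processed values held 478 of the members, 95 of which were well above background on no array here.

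**Figure D2:**
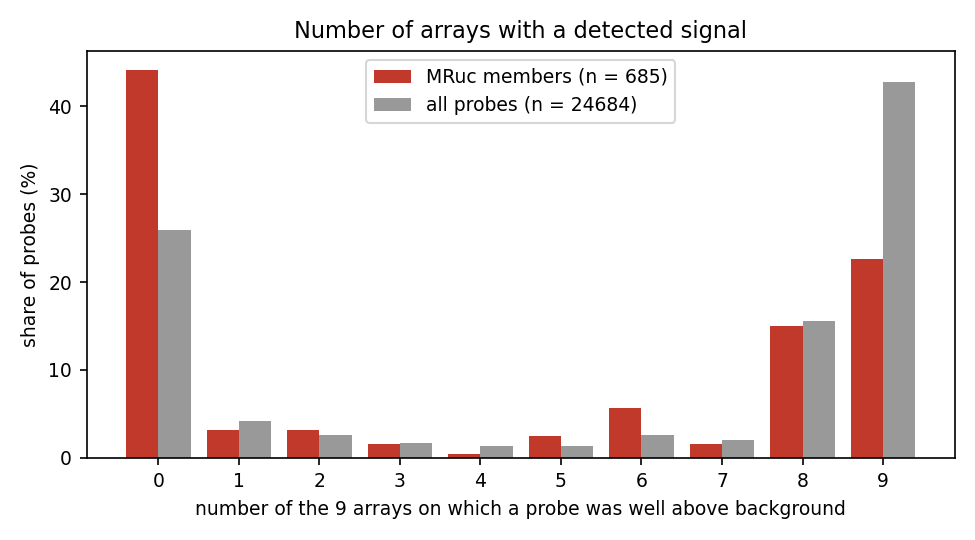
Share of probes (%, y axis) by the number of arrays on which a probe was well above background (x axis), for the 685 MRuc members and for all 24684 non-control probes. The MRuc bars are higher at 0 arrays (44.1% against 25.9%) and lower at 9 arrays (22.6% against 42.7%).

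The test between strains used 339 members (49.5%) that carried a detected signal on 3 or more arrays and kept a usable spot in every strain, out of 16592 tested probes. The other 346 were too dim to test. A member could pass through 1 strain alone, so counts over the 339 describe the tested members only. By name, 43.8% of MRuc007, 52.1% of MRuc008 and 52.9% of MRuc009 were tested. The mean level over the 9 arrays ran from -6.88 to 6.63, with quartiles of -5.06, -3.08 and -0.03. A mean level above 0 was reached by 84 tested members (24.8%), against 46.2% of all tested probes, and 137 (40.4%) lay below -4, against 22.8%. The median level of the tested members was -3.06 to -2.99 in Dahl S and -3.01 to -3.0 in Dahl R. In SHR it was -3.21, -2.92 and -3.14. This median did not set SHR replicate 3 apart, although 183 tested members were not well above background there. Over all tested probes, SHR replicate 3 had a median of -1.24, while the remaining arrays ranged from -0.48 to -0.45. For the 155 members detected on all 9 arrays its median was 0.03, below the range of 0.25 to 0.44 elsewhere. The 3 spots of a member well above background had a median SD of 0.10 to 0.13 on the log2 scale, depending on the array. Between arrays of a strain the median SD was 0.16 in Dahl S, 0.12 in Dahl R and 0.41 in SHR, or 0.14 between SHR replicates 1 and 2.

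The 6 members with the highest levels showed no strain difference past the threshold, an adjusted p of 0.05 in limma with Benjamini-Hochberg adjustment over all tested probes. MRuc007gex was the brightest, at 6.63, 6.70 and 6.64 in Dahl S, 6.67, 6.47 and 6.67 in Dahl R and 6.57, 6.40 and 6.89 in SHR. The strains overlapped, and the signal was about 98.8 times the 75th percentile of the array. MRuc008eri lay at 4.61, 4.47 and 4.50 in Dahl S, 4.40, 4.37 and 4.45 in Dahl R and 4.55, 4.45 and 4.56 in SHR, again overlapping. MRuc007tcw had 4.51, 4.35 and 4.35 in Dahl S, 4.33, 4.36 and 4.40 in Dahl R, and 4.53 on both SHR arrays with a usable spot. The SHR values were the highest of the 8, and neither SHR comparison passed the threshold (limma adjusted p = 0.416 against Dahl S and 0.322 against Dahl R).

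MRuc008kuc and MRuc009frc were slightly brighter in SHR, by amounts that passed under 1 of 18 alternatives, the fit without SHR replicate 3. MRuc008kuc lay at 4.38, 4.40 and 4.44 in Dahl S, 4.41, 4.37 and 4.47 in Dahl R and 4.70, 4.72 and 5.44 in SHR. All SHR values were above all others, and SHR replicate 3 was the highest. The difference of SHR from Dahl R was 0.54 ± 0.19 (SE; limma adjusted p = 0.115) with all arrays and 0.29 ± 0.07 (adjusted p = 0.0219) without SHR replicate 3. MRuc009frc lay at 4.29, 4.25 and 4.32 in Dahl S, 4.30, 4.30 and 4.27 in Dahl R, and 4.49 and 4.55 on the SHR arrays with a usable spot. SHR again lay above the others, with a difference from Dahl R of 0.23 ± 0.09 (limma adjusted p = 0.153), or an adjusted p of 0.0448 in the fit without SHR replicate 3.

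MRuc007hrz, the remaining bright member, carried the least certain mean of them. It lay at 2.33, 5.37 and 5.40 in Dahl S, 5.32, 5.33 and 5.35 in Dahl R, and 5.40 and 5.44 on SHR replicates 1 and 2. Dahl S replicate 1 alone was low. Its 3 spots there read 5.43, -4.03 and 5.58, and no outlier mark was set on them, whereas on SHR replicate 3 all 3 spots were marked although they read 5.49, 5.63 and 5.61. The fitted difference of Dahl S from Dahl R, -0.97 ± 0.79 (SE; limma adjusted p = 0.799), therefore contains that 1 dim spot.

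Between Dahl S and Dahl R, 2 of the 339 tested MRuc members differed, MRuc008cjn and MRuc007smc, and both were higher in Dahl S. That is 0.59% of the members, below the 1.40% of all tested probes past the threshold (0.705% higher and 0.699% lower in Dahl S). No member was lower in Dahl S by limma with adjusted p-values, and 11 were at an unadjusted p under 0.05, as were 15 in the other direction. Without SHR replicate 3, which is no array of these strains but enters the shared estimate of the spread and the filter, 11 members passed (3.24%, against 4.59% of all tested probes), 8 higher and 3 lower in Dahl S. A change of at least 2-fold was reached by 1 of them, and the share of all probes at that size is not given. Every Dahl S array lay outside the range of the other 6 arrays for 33 of 327 members with a full set of values (all probes 11.7%), and every Dahl R array for 18 (all probes 8.39%). Without SHR replicate 3 these counts were 46 of 339 (all probes 15.8%) and 31 (all probes 12.3%).

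MRuc008cjn separated all 3 strains and was the only member past the threshold in every comparison. Its levels were -1.05, -1.38 and -1.39 in Dahl S, -3.59, -3.41 and -3.31 in Dahl R and -4.90, -4.23 and -4.67 in SHR. No array of one strain overlapped another strain, in the order Dahl S, Dahl R, SHR. Dahl S was 4.48-fold above Dahl R (2.16 ± 0.19, SE, n = 3 each; limma adjusted p = 0.00165) and 10-fold above SHR (3.33 ± 0.19, adjusted p = 4.8e-05). SHR was below Dahl R by a log2 difference of -1.17 ± 0.19 (limma adjusted p = 0.00705), 2.24-fold. The folds from SHR were 9.80 for Dahl S and 2.19 for Dahl R without SHR replicate 3. It was well above background on all Dahl arrays and on 2 of 3 SHR arrays, and against the lone Dahl R array of its scan time the Dahl S mean was higher by 2.32. The Dahl S to Dahl R call was lost with the authors' deposited values (2.18, limma adjusted p = 0.586) and with quantile normalization (2.15, adjusted p = 0.433). The SHR to Dahl R call was lost under 4 settings, with a larger difference for quantile normalization (-2.16, limma adjusted p = 0.157) and the authors' values (-2.21, adjusted p = 0.204) and a smaller one for normexp (-0.89, adjusted p = 0.0619) and the unmarked percentile (-0.81, adjusted p = 0.226).

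MRuc007smc was dimmer and its difference smaller. It lay at -3.89, -3.87 and -3.92 in Dahl S, -4.87, -4.88 and -4.51 in Dahl R and -4.08, -3.97 and -4.27 in SHR. Dahl R was below every other array, and Dahl S and SHR did not overlap either, with a narrow gap between them. Dahl S was 1.82-fold above Dahl R (0.86 ± 0.13, limma adjusted p = 0.0228) and SHR, detected on 2 of 3 arrays, was 1.57-fold above Dahl R (0.65 ± 0.13, adjusted p = 0.0177), or 1.66-fold without SHR replicate 3. The first call was lost in 12 of 17 alternative settings and the second in 8 of 17, with limma adjusted p-values between 0.00865 and 0.574 for the first and between 0.00741 and 0.644 for the second. Among the settings that ended both were leaving out Dahl R replicate 1 or 2, and leaving out any single Dahl S array ended the first.

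The members next closest to the threshold were MRuc008egb, MRuc009qcd and MRuc008keh. MRuc008egb lay at 0.15, 0.13 and 0.19 in Dahl S, -0.69, -0.60 and -0.73 in Dahl R and -0.16, -0.0384 and -0.65 in SHR. Dahl S was above all other arrays, and Dahl R overlapped SHR only through SHR replicate 3. The Dahl S to Dahl R difference was 0.83 ± 0.15 (limma adjusted p = 0.0531) with all arrays and 0.83 ± 0.07 (adjusted p = 0.00139) without SHR replicate 3. MRuc008keh lay at -4.05, -4.29 and -3.99 in Dahl S, -4.89, -5.12 and -4.80 in Dahl R and -4.02, -4.21 and -4.60 in SHR. Dahl R was below every other array, while Dahl S and SHR overlapped. Its Dahl S to Dahl R difference was 0.83 ± 0.17 (limma adjusted p = 0.075, and 0.0142 without SHR replicate 3), and SHR exceeded Dahl R by 0.66 ± 0.17 (adjusted p = 0.0428, and 0.0064 without SHR replicate 3, where the difference was 0.82). The SHR to Dahl R call was lost in 13 of 17 alternatives, and the difference turned to -0.23 with quantile normalization and -0.41 with the authors' values.

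SHR differed from both Dahl strains at many more members. Against Dahl S, 50 of 339 members passed the threshold (14.7%, all tested probes 15.7%), 20 higher in Dahl S (all probes 7.08%) and 30 higher in SHR (all probes 8.62%). Against Dahl R, 45 passed (13.3%, all tested probes 13.0%), 27 higher in SHR (all probes 7.56%) and 18 lower (all probes 5.49%). Both comparisons use the SHR arrays, so their counts are not independent. The moderated F test over the 3 strains called 46 members (13.6%, all probes 15.0%). Each of these shares of the members was near the share of all probes. The probes as a whole had fewer spots on average than a member, and the part of this in the shares was not tested. A change of at least 2-fold was shown by 22 of the 50, 14 of them higher in Dahl S, and by 18 of the 45, 7 of them higher in SHR. The share of all probes at that size is not given, so this split is not read as a trait of the members. The median size of a called difference was 0.96 and 0.89 on the log2 scale.

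The share of members called in the SHR comparisons differed with their level. Against Dahl S, 15 of 84 members with a mean level above 0 were called (17.9%, all probes at that level 13.8%), 26 of 118 between -4 and 0 (22%, all probes 21.6%) and 9 of 137 below -4 (6.57%, all probes 11.5%). Against Dahl R, the counts were 12 of 84 (14.3%, all probes 12.4%), 25 of 118 (21.2%, all probes 18.3%) and 8 of 137 (5.84%, all probes 7.39%). The dimmest tested members thus gave the smallest share of calls in both comparisons. No test of this pattern was made.

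**Figure D3:**
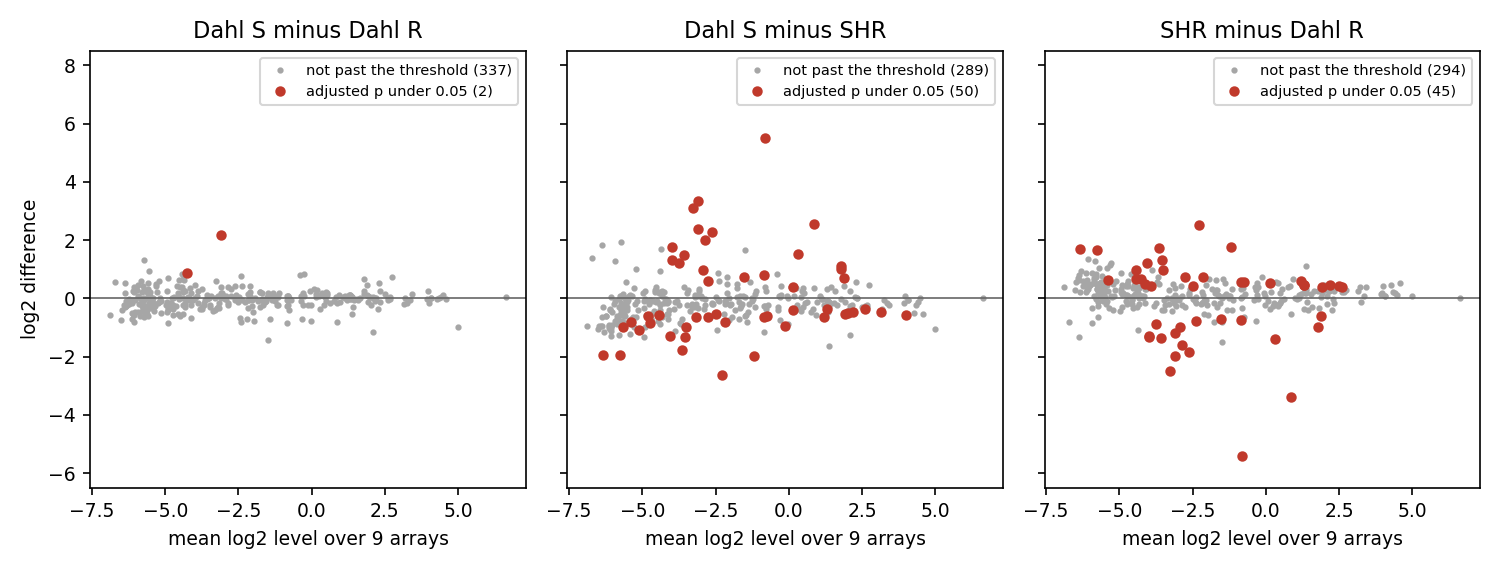
Log2 difference between strains (y axis) against the mean log2 level over the 9 arrays (x axis) for the 339 tested MRuc members, in 3 panels for the 3 comparisons. Red points passed an adjusted p of 0.05 in limma, 2 for Dahl S minus Dahl R, 50 for Dahl S minus SHR and 45 for SHR minus Dahl R.

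The counts rose when SHR replicate 3 was left out. Then 82 members passed against Dahl S (24.2%, all tested probes 26.2%) and 80 against Dahl R (23.6%, all tested probes 22.7%). Of the 50 and 45 members called with all arrays, 49 and 45 were called without it too. Every SHR array lay outside the range of the other 6 arrays for 77 of 327 members (all probes 24.4%), 58 above and 19 below, and for 121 of 339 without SHR replicate 3 (all probes 37.2%), 78 above and 43 below. Leaving out Dahl R replicate 1 or 2 gave 22 calls each for SHR against Dahl R (all tested probes 6.57% and 5.85%), 8 higher and 14 lower in SHR, and leaving out Dahl R replicate 3 gave 27 (all tested probes 7.01%). Leaving out Dahl S replicate 2 or 3 gave 29 and 31 calls for Dahl S against SHR (all tested probes 8.05% and 9.17%).

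Among the 183 tested members that were not well above background on SHR replicate 3, including that array raised the SHR to Dahl R difference by a median of 0.29, from a median difference of -0.06 to 0.21, and 59 changed sign. Among the 156 that were well above background there, the median change was 0.05, and 27 changed sign.

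**Figure D4:**
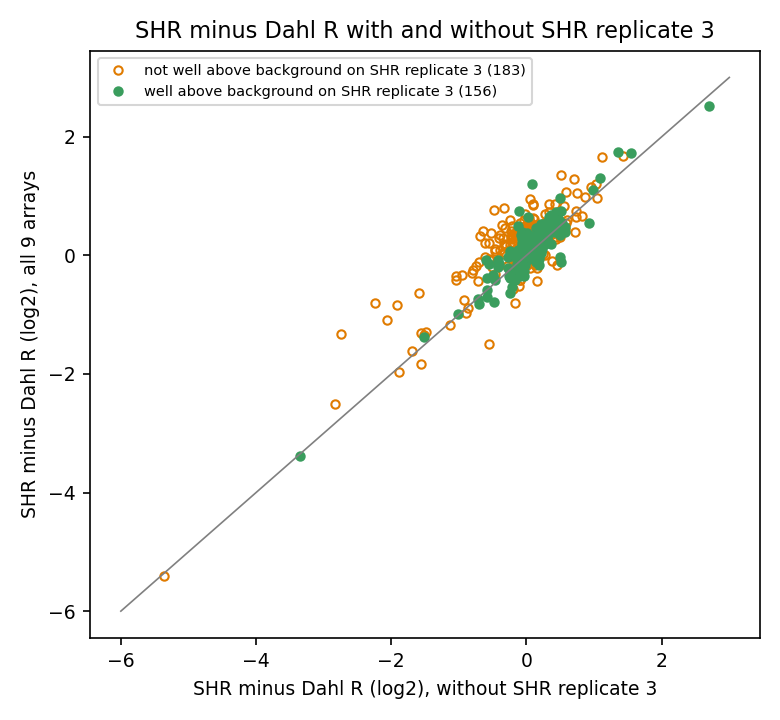
SHR minus Dahl R on the log2 scale for the 339 tested MRuc members, without SHR replicate 3 (x axis) and with all 9 arrays (y axis), with the line of equality. Open points are the 183 members not well above background on SHR replicate 3, many of which lie above the line, and filled points are the 156 that were.

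The overall balance of directions moved with the scaling and with SHR replicate 3. The median difference over the tested members was -0.02 for Dahl S minus Dahl R, -0.20 for Dahl S minus SHR and 0.19 for SHR minus Dahl R, against 0.02, -0.09 and 0.11 over all tested probes. Without SHR replicate 3 they were -0.02, -0.10 and 0.03 (all probes 0.02, -0.03 and 0.04). With quantile normalization, the 2 SHR medians of the members were 0.03 and -0.05 (all probes 0.03 and -0.02). With the percentile taken over spots without an outlier mark they were -0.56 and 0.54 (all probes -0.42 and 0.42). Under normexp background correction they were 0.33 and 0.33 (all probes 0.11 and 0.18), and the median of the members for Dahl S minus Dahl R moved to 0.63 (all probes 0.14). The split of calls moved too: for Dahl S against SHR the calls higher and lower in Dahl S were 9 and 0 under normexp (all probes called 3.31%), 7 and 5 with the unmarked percentile (all probes 3.77%) and 21 and 17 with the authors' values (all probes 10.5%). For SHR against Dahl R, those higher and lower in SHR were 1 and 2 under normexp (all probes 2.51%) and 13 and 17 with the authors' values (all probes 8.36%).

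With scan time as a block, 14 members passed for Dahl S against SHR (4.13%, all tested probes 5.22%) and 57 for SHR against Dahl R (16.8%, all tested probes 15.8%). SHR replicate 3 was alone in its scan time, so it added nothing to the strain differences of this fit. Without that array and with no block, 82 and 80 members passed (all tested probes 26.2% and 22.7%). Within the scan time that held SHR replicates 1 and 2 and Dahl R replicates 2 and 3, all 45 members called for SHR against Dahl R had the same direction, no overlap between the strains, and a difference within 1.5 times that over all arrays. The same arrays had entered the calls. Within the first scan time, both members called for Dahl S against Dahl R kept their direction. For Dahl S against SHR no scan time held both strains, so only the block could be used. It linked these strains through Dahl R, and Dahl R replicate 1 was the only Dahl R array scanned with Dahl S.

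The members with the lowest signal in SHR were led by MRuc008qku, the largest difference among the members in either SHR comparison. It lay at 1.05, 0.92 and 1.17 in Dahl S, 0.95, 0.91 and 1.01 in Dahl R and -4.25, -4.57 and -4.53 in SHR. The Dahl strains overlapped, and all SHR arrays were far below them, at a level that was well above background on SHR replicates 1 and 2 and not on replicate 3. Dahl S was 45.1-fold above SHR (5.49 ± 0.12, SE, n = 3 each; limma adjusted p = 5.18e-07) and Dahl R was 42.2-fold above SHR (SHR minus Dahl R -5.40 ± 0.12, adjusted p = 3.43e-07). Between Dahl S and Dahl R the difference was 0.09 ± 0.12 (limma adjusted p = 0.903). Both SHR calls held under all 17 alternatives that could be run for it, with differences between 4.28 and 6.29 from Dahl S and between -6.22 and -4.26 from Dahl R. In the fit without SHR replicate 3 the folds were 43.8 and 41.0, and within the scan time shared by SHR and Dahl R the difference was -5.36.

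MRuc009qcd was well above background on every array, and its low signal in SHR was measured on all 3. It lay at 1.75, 1.42 and 1.15 in Dahl S, 2.35, 2.30 and 2.11 in Dahl R and -1.11, -1.08 and -1.20 in SHR. No strains overlapped, with Dahl R highest and SHR lowest. Dahl R was 10.4-fold above SHR (SHR minus Dahl R -3.38 ± 0.16, limma adjusted p = 1.52e-05) and Dahl S was 5.95-fold above SHR (2.57 ± 0.16, adjusted p = 6.8e-05), or 10.2-fold and 5.80-fold without SHR replicate 3. Both calls held under all 18 alternatives. Dahl S minus Dahl R was -0.81 ± 0.16 (limma adjusted p = 0.0549), which passed without SHR replicate 3 (0.0334).

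MRuc008ynf, MRuc007myv, MRuc007lsc and MRuc009hdt were also lower in SHR, each detected on all Dahl arrays and on 2 of 3 SHR arrays. MRuc008ynf lay at -1.54, -2.32 and -2.26 in Dahl S, -2.47, -2.53 and -2.94 in Dahl R and -4.94, -6.01 and -4.48 in SHR. SHR was below all Dahl arrays and varied most, with Dahl S 8.62-fold above SHR (3.11 ± 0.39, limma adjusted p = 0.0021) and Dahl R 5.66-fold above (SHR minus Dahl R -2.50 ± 0.39, adjusted p = 0.00642). The folds were 10.9 and 7.13 without SHR replicate 3. The first call was lost with scan time as a block (3.17, limma adjusted p = 0.0541) and the second under normexp (-1.34) and with the unmarked percentile (-2.15).

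MRuc007myv lay at -1.99, -2.34 and -2.19 in Dahl S, -2.52, -2.58 and -2.61 in Dahl R and -4.16, -4.77 and -4.72 in SHR. No strains overlapped, and the gap between the Dahl strains was narrow (0.40 ± 0.18, limma adjusted p = 0.491). Dahl S was 5.19-fold above SHR (2.38 ± 0.18, limma adjusted p = 0.000162) and Dahl R 3.93-fold above (SHR minus Dahl R -1.97 ± 0.18, adjusted p = 0.000469). With SHR replicate 3 left out, the folds were 4.89 and 3.71. Both calls were lost with quantile normalization, where the differences were larger (3.43 and -3.04, limma adjusted p = 0.052 and 0.085), and with the authors' values (3.42 and -3.03, adjusted p = 0.0611 and 0.104). The second was also lost under normexp, with a smaller difference (-1.10).

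MRuc007lsc lay at -1.22, -1.89 and -2.0 in Dahl S, -1.93, -2.12 and -2.37 in Dahl R and -3.55, -3.85 and -4.56 in SHR. The Dahl strains overlapped, and SHR lay below both, by 4.86-fold from Dahl S (2.28 ± 0.30, limma adjusted p = 0.00249) and 3.59-fold from Dahl R (SHR minus Dahl R -1.84 ± 0.30, adjusted p = 0.00753). Leaving out SHR replicate 3 gave folds of 3.99 and 2.94. Both calls were lost with quantile normalization (3.11 and -2.68) and the authors' values (3.19 and -2.77), where the differences were larger, the first also with scan time as a block (1.68, limma adjusted p = 0.0963) and the second under normexp (-1.13). MRuc009hdt lay at -1.92, -2.20 and -2.05 in Dahl S, -2.43, -2.46 and -2.41 in Dahl R and -3.95, -4.31 and -3.88 in SHR. SHR was again below all Dahl arrays, 3.97-fold from Dahl S (1.99 ± 0.13, limma adjusted p = 0.000107) and 3.06-fold from Dahl R (-1.61 ± 0.13, adjusted p = 0.000314), or 4.21-fold and 3.25-fold without SHR replicate 3. The difference from Dahl S passed under all 17 alternatives, and that from Dahl R was lost under normexp (-0.97) and with the unmarked percentile (-1.26).

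**Figure D5:**
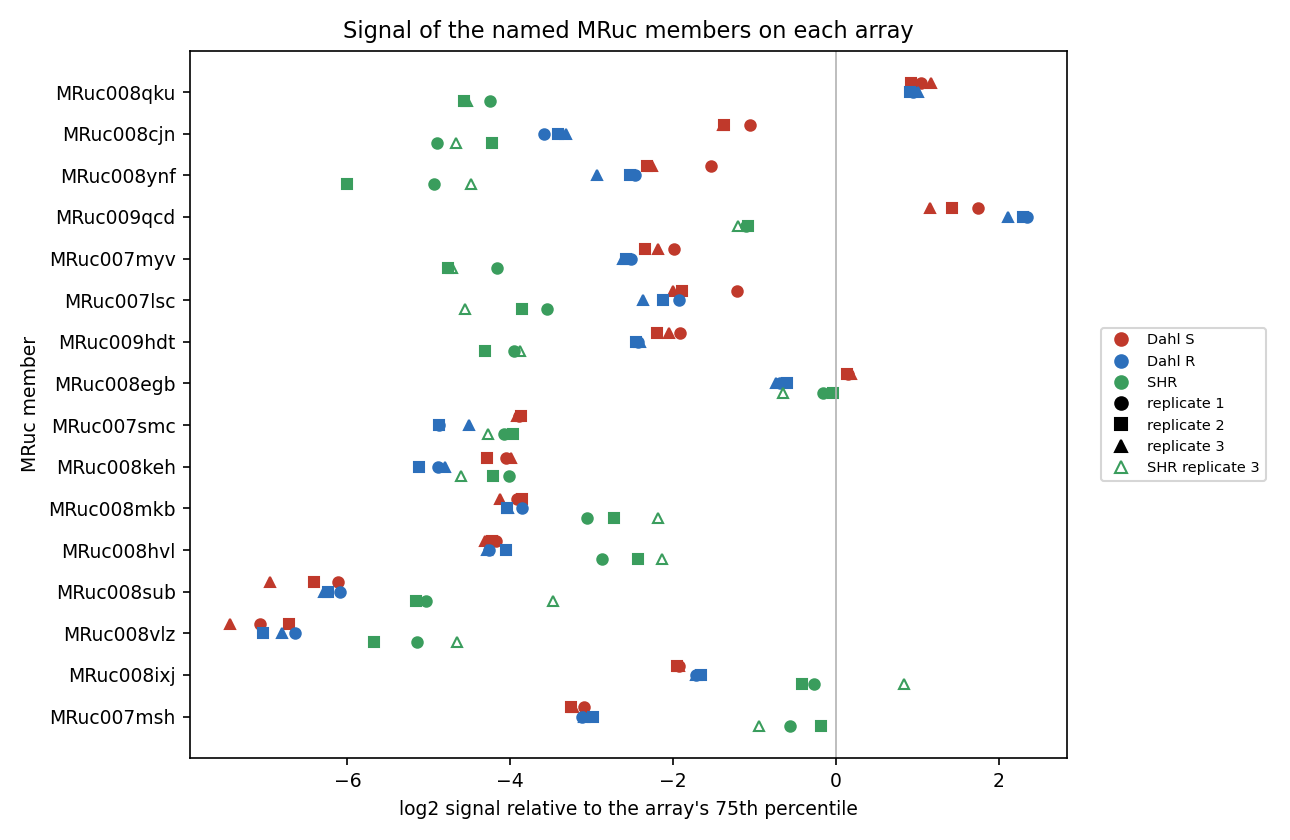
Log2 level relative to the array's 75th percentile (x axis) on each array for the 15 named MRuc members called in at least 1 comparison and MRuc008egb (y axis). Colours give the strain, shapes the replicate, and open triangles SHR replicate 3. MRuc008qku has the widest gap, near 1 in both Dahl strains and below -4 in SHR.

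The members with a higher signal in SHR were led by MRuc007msh. It lay at -3.09, -3.26 and -3.23 in Dahl S, -3.12, -2.98 and -3.09 in Dahl R and -0.56, -0.18 and -0.94 in SHR. It was well above background on every array, the Dahl strains overlapped and SHR lay above them. SHR was 6.21-fold above Dahl S (Dahl S minus SHR -2.64 ± 0.18, limma adjusted p = 0.00012) and 5.69-fold above Dahl R (2.51 ± 0.18, adjusted p = 0.000168), or 7.09-fold and 6.49-fold without SHR replicate 3. The difference from Dahl R passed under all 18 alternatives, and that from Dahl S was lost under normexp (-1.65, limma adjusted p = 0.0557).

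MRuc008ixj, MRuc008hvl and MRuc008mkb were detected on every array as well. MRuc008ixj lay at -1.93, -1.95 and -1.93 in Dahl S, -1.72, -1.66 and -1.72 in Dahl R and -0.27, -0.42 and 0.84 in SHR. No strains overlapped, and SHR replicate 3 lay far above the other 2 SHR arrays. SHR was 3.96-fold above Dahl S (Dahl S minus SHR -1.99 ± 0.30, limma adjusted p = 0.00444) and 3.36-fold above Dahl R (1.75 ± 0.30, adjusted p = 0.00858). Without SHR replicate 3 these were 3.01-fold and 2.56-fold, with standard errors of 0.07 and limma adjusted p-values of 2.68e-05 and 5.92e-05.

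MRuc008hvl lay at -4.18, -4.22 and -4.31 in Dahl S, -4.26, -4.05 and -4.28 in Dahl R and -2.87, -2.43 and -2.14 in SHR. The Dahl strains overlapped and SHR lay above both, 3.38-fold from Dahl S (Dahl S minus SHR -1.76 ± 0.18, limma adjusted p = 0.000763) and 3.29-fold from Dahl R (1.72 ± 0.18, adjusted p = 0.00095). These were 3.0-fold and 2.92-fold without SHR replicate 3. MRuc008mkb lay at -3.92, -3.86 and -4.13 in Dahl S, -3.85, -4.04 and -4.03 in Dahl R and -3.06, -2.73 and -2.19 in SHR. It showed the same order, with SHR 2.48-fold above each Dahl strain (-1.31 ± 0.21 and 1.31 ± 0.21; limma adjusted p = 0.00603 and 0.00676), or 2.11-fold without SHR replicate 3. Under normexp all calls of these 3 members were lost. Dahl S minus SHR then shrank to -0.58 for MRuc008hvl, -0.37 for MRuc008mkb and -1.53 for MRuc008ixj, while SHR minus Dahl R was 1.49, 1.18 and 1.66. With the unmarked percentile the calls of MRuc008ixj (-2.35 and 2.10) and MRuc008mkb (-1.67 and 1.66) were lost, with differences that were larger.

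MRuc008sub and MRuc008vlz were dim, and their higher signal in SHR is less certain. MRuc008sub lay at -6.11, -6.41 and -6.95 in Dahl S, -6.09, -6.24 and -6.29 in Dahl R and -5.04, -5.16 and -3.48 in SHR. SHR was above all Dahl arrays, but the member was well above background on only 1 array of each Dahl strain and 2 of SHR, so no fold is given. The log2 differences were -1.93 ± 0.44 for Dahl S minus SHR (limma adjusted p = 0.023) and 1.65 ± 0.44 for SHR minus Dahl R (adjusted p = 0.0463), and -1.39 and 1.11 without SHR replicate 3. The calls were lost in 7 and 10 of 17 alternatives, with limma adjusted p-values from 0.00519 to 0.868 and from 0.0139 to 0.695. Dahl S minus SHR turned to 0.25 under normexp.

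MRuc008vlz lay at -7.07, -6.72 and -7.44 in Dahl S, -6.65, -7.04 and -6.80 in Dahl R and -5.14, -5.67 and -4.65 in SHR. It was well above background on no Dahl S array, 1 Dahl R array and SHR replicates 1 and 2. Dahl S minus SHR was -1.93 ± 0.28 (limma adjusted p = 0.00407) and SHR minus Dahl R 1.68 ± 0.28 (adjusted p = 0.00827), or -1.67 and 1.43 without SHR replicate 3. From the arrays that detected it, SHR replicates 1 and 2, SHR was at least 1.83-fold above Dahl S, a bound set by the lowest detectable signal of the Dahl S arrays. Each call was lost in 4 of 14 alternatives, with limma adjusted p-values up to 0.73 and 0.733, and Dahl S minus SHR turned to 0.47 under normexp.

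The remaining called members had smaller differences. For Dahl S against SHR, 13 others were higher in Dahl S by 0.40 to 1.75 and 24 were lower by -0.36 to -1.28 on the log2 scale, with limma adjusted p-values from 0.00126 to 0.046. For SHR against Dahl R, 19 others were higher in SHR by 0.39 to 1.21 and 11 lower by -0.59 to -1.38, with limma adjusted p-values from 0.00281 to 0.0484. Of these, 7 of 13, 15 of 24, 12 of 19 and 5 of 11 were well above background on all 9 arrays.

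For 5 members the detection mark itself separated strains, being set on all 3 arrays of one strain and none of another (5 of 685, 0.73%, against 0.907% of all probes). MRuc007jqh was detected on all Dahl arrays and no SHR array, at -5.28, -6.01 and -5.48 in Dahl S, -6.35, -5.73 and -6.26 in Dahl R and -8.65, -9.07 and -4.57 in SHR. SHR replicate 3 was the highest of the 9 although not well above background. Dahl S minus SHR was 1.84 ± 1.06 (limma adjusted p = 0.275) with all arrays and 3.27 ± 0.28 (adjusted p = 0.000342) without SHR replicate 3, where the fold was at least 3.13 for Dahl S and at least 2.18 for Dahl R over SHR. Under normexp, with all arrays, Dahl S minus SHR was 1.41 and SHR minus Dahl R 0.08.

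MRuc008btb was detected on all Dahl S arrays and no SHR array, at -4.23, -4.78 and -4.95 in Dahl S, -5.36, -6.0 and -6.56 in Dahl R and -7.27, -7.86 and -4.67 in SHR. Only SHR replicate 3 overlapped Dahl S. Dahl S minus SHR was 1.95 ± 0.77 (limma adjusted p = 0.13), and without SHR replicate 3 it was 2.91 ± 0.38 (adjusted p = 0.00232), at least 5.99-fold. With scan time as a block it was 1.99 and did not pass (limma adjusted p = 0.0955). MRuc009jvu was detected on all Dahl R and 2 Dahl S arrays and no SHR array, at -4.91, -5.44 and -5.71 in Dahl S, -5.44, -5.80 and -6.20 in Dahl R and -7.62, -7.82 and -4.49 in SHR. SHR replicate 3 was again the highest. Its SHR minus Dahl R difference was -0.83 ± 0.81 (limma adjusted p = 0.542), and without SHR replicate 3 it was -1.91 ± 0.29 (adjusted p = 0.00452), with Dahl R at least 2.68-fold above SHR. Under normexp, with all arrays, SHR minus Dahl R was 0.05.

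MRuc008euj and MRuc008fud were detected on all Dahl R arrays and no Dahl S array, and neither difference passed the threshold. The lowest level well above background was -6.18, -7.21 and -5.92 on the Dahl S arrays. It was -7.51, -6.90 and -6.89 on the Dahl R arrays, so the mark was not set at equal levels in these strains. MRuc008euj lay at -5.53, -6.35 and -6.98 in Dahl S, -6.05, -5.60 and -5.37 in Dahl R and -6.56, -5.73 and -4.49 in SHR, with all strains overlapping (Dahl S minus Dahl R -0.61 ± 0.55, limma adjusted p = 0.823). On Dahl S replicate 1 it was unmarked, although brighter than on Dahl R replicates 1 and 2, where it was marked. MRuc008fud lay at -6.68, -6.59 and -7.03 in Dahl S, -6.09, -5.92 and -5.82 in Dahl R and -6.37, -5.51 and -4.53 in SHR. Dahl S was below all other arrays, by -0.82 ± 0.40 from Dahl R (limma adjusted p = 0.568). Under normexp, Dahl S minus Dahl R turned to 1.19 for MRuc008fud and 1.24 for MRuc008euj. Without SHR replicate 3 the mark separated 7 members (1.02%, against 1.57% of all probes), adding MRuc008vlz, described above, and MRuc007pap, named here after its values were seen. MRuc008fud was then also detected on both remaining SHR arrays. MRuc007pap was detected on both remaining SHR arrays and on no Dahl array. Its mean level was -5.45 on those SHR arrays, -8.12 in Dahl S and -8.38 in Dahl R. It was among the members too dim to test, so it has no p-value. Its detection pattern was the reason for naming it, so these levels are a description only.

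Some single markers of kidney and other cell types also differed between strains, while the sums of several lists overlapped. Summed relative to the 75th percentile on a linear scale, with marked spots kept, the 4 fat markers on the array (3 detected on all 9 arrays and Lep on none) gave 14.3 to 24.0 in Dahl S, 23.0 to 27.6 in Dahl R and 29.2 to 41.3 in SHR. The 3 of them with an unmarked spot on every array gave 11.6 to 19.5, 18.9 to 22.4 and 17.2 to 24.4, which overlap. Of the single fat markers, Ucp1 was higher in SHR than in Dahl R by 1.38 (limma adjusted p = 0.0468), and Cidec differed by -0.02 (adjusted p = 0.948). Ucp1 had no usable spot on SHR replicate 3 or on Dahl R replicate 2. The 2 collecting duct markers gave 106 to 139 in Dahl S, 106 to 137 in Dahl R and 148 to 174 in SHR with marked spots kept. Of these, Aqp2, with an unmarked spot on every array, gave 70.0 to 91.1, 68.1 to 91.8 and 107 to 129, higher in SHR without overlap, and Aqp3 differed between SHR and Dahl R by 0.06 (limma adjusted p = 0.833). The 4 blood markers gave 293 to 368 in Dahl S, 249 to 270 in Dahl R and 251 to 289 in SHR with marked spots kept, and the 2 with an unmarked spot on every array 265 to 333, 238 to 255 and 237 to 279. The 3 leukocyte markers gave 9.13 to 12.0, 10.4 to 11.2 and 7.12 to 9.26 with marked spots kept, and the 1 with an unmarked spot on every array, Cd3e, 0.467 to 0.737, 0.697 to 0.986 and 0.165 to 0.79. With marked spots kept, the 2 endothelium markers gave 2.16 to 2.42, 1.63 to 1.97 and 2.2 to 2.3, lowest in Dahl R. The 3 podocyte markers overlapped, while Nphs1 alone gave 1.99 to 2.3, 1.96 to 2.11 and 2.79 to 8.4. Sums of the other lists overlapped. Dahl S was above SHR for Cubn (0.44, limma adjusted p = 0.0308) and Alas2 (1.21, adjusted p = 0.0257). It was below SHR for Podxl (-0.61, limma adjusted p = 0.0154) and Apob (-1.13, adjusted p = 0.0305). SHR was below Dahl R for Slc22a6 (-0.57, limma adjusted p = 0.0308), and Dahl S above Dahl R for Slc4a1 (0.78, adjusted p = 0.0483). Beyond these, only Ucp1 and Aqp2 passed. The part of these markers in the differences of the MRuc members was not tested.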

How the data were processed

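The authors deposited the output of Agilent Feature Extraction 10.5.1.1 (version per the submitters' processing notes) for each of the 9 arrays. Per the file headers, its processed signal is a background-subtracted intensity, and other columns mark spots as well above background or as outliers. The authors also deposited a table of log2 values, read as log2 because they follow the scanner signals (r = 0.970 on SHR replicate 3 and 0.999 or more elsewhere); its column medians were 9.63 to 9.64, and its normalization and centring stay unknown. Each array held 43553 spots, 1417 of them controls, which were left out. No spot was saturated (0 on every array).

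The log2 processed signal minus log2 of the array's 75th percentile was averaged over a probe's spots without an outlier mark. Strains were compared with limma 3.58.1 in R 4.3.3 on 16592 probes, in 1 fit of all 9 arrays that held no term but strain, with Benjamini-Hochberg adjusted p-values over all of these probes and a threshold of 0.05. A fold is given where both strains were well above background on 2 or 3 arrays, "at least" where a strain was on 0 arrays, and no fold where it was on 1. The bound sets the brighter mean against the dim strain's mean of, per array, the higher of the probe's signal and the lowest signal well above background. Of the tested members, 12 lacked a value on SHR replicate 3 and were fitted on 8 arrays. The fit was tested on simulated data.

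The rules for naming single members and the marker lists were chosen with earlier results of these data known. Members named are, per comparison, the 6 largest differences each way past 0.05, the 6 highest levels, members past the threshold in all 3 comparisons, those detected on all 3 arrays of one strain and on 0 of another, and those with the smallest adjusted p for Dahl S against Dahl R (5 were taken). Alternatives were normexp (offset 50, on median signals), quantile normalization, the percentile over unmarked spots, outlier spots kept, a stricter filter or none, scan time or replicate number as a block, the authors' values, and leaving out each array. Sequences and genome positions of the members were not used here. The number of arrays limits the precision.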

Additional observations from a re-analysis of the deposited data

How the results depend on the processing

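The count of MRuc members past the threshold changed by over 1.5 times under several settings, and the cause was not tested. For Dahl S against Dahl R (2 calls), normexp, the percentile over unmarked spots, no filter and the replicate block gave 1 call each, and quantile normalization and the authors' values gave 0 by limma (19 and 28 at an unadjusted p under 0.05). For Dahl S against SHR (50 calls), normexp gave 9, the unmarked percentile 12, the stricter filter 29, no filter 33 and scan time as a block 14. For SHR against Dahl R (45 calls), the same settings in that order, without the block, gave 3, 9, 28 and 28. For the F test (46 calls), normexp gave 6, the unmarked percentile 8, no filter 27 and the replicate block 25. The share of all tested probes past the threshold fell as well. For Dahl S against SHR it went from 15.7% to 3.31% under normexp, 3.77% with the unmarked percentile and 5.22% with scan time as a block. For SHR against Dahl R it went from 13.0% to 2.51% under normexp. With no filter, 685 members were tested. Leaving out 1 array gave 1 to 11 calls for Dahl S against Dahl R, 29 to 82 for Dahl S against SHR, 22 to 80 for SHR against Dahl R and 29 to 88 for the F test, the highest each time without SHR replicate 3. Without that array the shares of all tested probes were 4.59%, 26.2% and 22.7% in these 3 comparisons of strains. Where no share of all probes is given, a count is not read as a trait of the members. The replicate block gave 35 and 30 calls in the 2 SHR comparisons; arrays with the same number did not pair (r of their deviations -0.16 to 0.07, against -0.18 to 0.20 for different numbers). The stricter filter tests 155 members in place of 339. It leaves out both members called for Dahl S against Dahl R and calls 3 others, MRuc008egb (0.83) and MRuc009hnl (0.73, named after its values were seen) higher and MRuc009qcd (-0.81) lower in Dahl S, with 0 shared. Of 30 named differences past the threshold, 7 passed under every alternative run for them and 27 kept their direction. Direction turned for MRuc008keh, SHR minus Dahl R (-0.23 with quantile normalization, -0.41 with the authors' values), and under normexp for Dahl S minus SHR of MRuc008sub (0.25) and MRuc008vlz (0.47). The gap in detection between MRuc and MRAK stayed between -1.84 and -0.90 points in all 11 alternatives run for it. Signal over background limits the 346 untested members, and SHR replicate 3 limits the dim tested ones.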
